A study of Mus musculus with 5 samples.

Results

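In mouse Th9 cells, 470 genomic sites outside promoters carried a ChIP-Seq summit of PU.1 and a summit of BATF. The sites were chosen by the positions of the summits alone. A member is a BATF summit on chromosomes 1 to 19 or X that lay more than 1000 bp from every annotated transcript start, with a PU.1 summit within 500 bp and no summit of Input, goat Ig or rabbit Ig within 500 bp. Of 4060 BATF summits, 3947 were on these chromosomes and 2753 of them were distal. A control summit lay within 500 bp of 1147 of the distal summits, and 793 of those 1147 also had a PU.1 summit within 500 bp. The other 1606 distal summits remained. Among these 1606, 470 had a PU.1 summit within 500 bp, which is 29.3%, and this share is fixed by the rule. All 5 lists together held 38651 summits.

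PU.1, encoded by Spi1, is a factor of the ETS family that reads purine-rich DNA around a GGAA core and can bind together with IRF4 or IRF8 at composite ETS-IRF elements. BATF is a basic leucine zipper factor of the AP-1 family that pairs with JUN proteins, reads AP-1 elements and can bind with IRF4 or IRF8 at composite AP-1-IRF elements. Both factors are known for their part in the expression of Il9 in Th9 cells, the helper T cells that IL-4 and TGF-β induce together.

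The libraries came from naive CD4 T cells of spleen and nodes of wild-type C57/Bl6j mice, 7 weeks old, with no other genotype. The cells were kept on plates coated with CD3 and CD28 antibodies, with IL-4 at 20 ng/ml, TGF-β at 2 ng/ml and an antibody that blocks IFNγ, for what the labels call a few hours. Chromatin was precipitated with an antibody to PU.1, an antibody to BATF, goat Ig or rabbit Ig, or was sequenced as Input, and both factor antibodies were raised in rabbit. Each of these 5 conditions is 1 library, so no value below has a replicate. Every interval covers the counting of sites or windows only. No group without either factor is among these libraries. The lists hold positions 1 bp wide with a peak score and no read counts, so the depth of each library is unknown. The PU.1 list held 8947 summits, the BATF list 4060, Input 25194, goat Ig 226 and rabbit Ig 224.

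Most shared distal sites were simple repeats. The commonest kind was a tract of alternating AC, read as TG on the other strand, with scattered changes. Sequences of 120 bp around the BATF summit are shown here for 4 such sites, all in mm10 and on the plus strand. Kif21a, a kinesin gene, holds the site of this class with the highest BATF score. The other genes belong to lists of T cell genes. Capitals mark matches to the IRF8 motif described further down.
Kif21a (chr15:90943300-90943419): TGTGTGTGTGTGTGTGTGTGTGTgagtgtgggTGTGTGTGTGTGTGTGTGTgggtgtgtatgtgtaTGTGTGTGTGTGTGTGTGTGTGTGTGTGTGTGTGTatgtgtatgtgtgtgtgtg
Ifngr2 (chr16:91549256-91549375): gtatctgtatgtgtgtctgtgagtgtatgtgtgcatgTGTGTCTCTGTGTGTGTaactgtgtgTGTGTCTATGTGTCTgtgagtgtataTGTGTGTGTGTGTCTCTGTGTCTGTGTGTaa
Ifng (chr10:118406386-118406505): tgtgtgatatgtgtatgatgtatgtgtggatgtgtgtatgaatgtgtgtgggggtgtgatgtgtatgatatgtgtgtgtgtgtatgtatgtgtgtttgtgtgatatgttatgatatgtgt
Il4ra (chr7:125580369-125580488): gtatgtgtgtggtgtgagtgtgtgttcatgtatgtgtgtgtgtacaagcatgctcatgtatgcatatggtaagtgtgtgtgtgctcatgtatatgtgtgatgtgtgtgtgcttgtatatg
The Kif21a stretch is an almost regular tract, whereas the stretches near Ifng and Il4ra are broken every few bases and hold no match to the motif in the 120 bp shown.

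A site outside simple repeats is shown for comparison, again in mm10 and on the plus strand. It lies in the Rasip1 gene, and capitals mark the CG dinucleotide.
Rasip1 (chr7:45628795-45628914): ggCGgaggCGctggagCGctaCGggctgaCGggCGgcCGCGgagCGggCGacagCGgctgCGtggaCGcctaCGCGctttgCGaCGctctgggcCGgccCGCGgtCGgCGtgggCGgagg
The Rasip1 stretch is coding sequence rich in CG, with no tract of a repeated unit.

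To learn what the sites have in common, 200 bp around each BATF summit was compared with 2 other sets defined in the same way. Distal BATF-only sites were 1136 BATF summits with no PU.1 summit within 500 bp, and distal PU.1-only sites were 4342 PU.1 summits with no BATF summit within 500 bp. Simple repeats were windows in which a period of 1 to 6 bp could be found at which over 50% of the bases matched the base that many bp upstream. By this measure 381 of 470 members were simple repeats (81.1%, exact 95% interval 77.2 to 84.5). The share was 59.9% at distal BATF-only sites and 52.3% at distal PU.1-only sites. It was 2.87% in windows 5000 bp to either side of the members and 2.57% over all 12012365 distal windows of the genome.

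The share of simple repeats at members was 21.1 percentage points above that at distal BATF-only sites (95% interval 16.4 to 25.5, 2-sided Fisher's exact test, p = 3.9e-16 adjusted over 12 comparisons). It was 28.7 points above that at distal PU.1-only sites (24.6 to 32.3, Fisher's exact test, adjusted p = 6.3e-34). Both differences were smaller under a cut on the peak scores, which members had to pass for both factors and each other set for its own factor only. Among the 114 members whose BATF and PU.1 scores were both above the median of their list, 70.2% were simple repeats. The share was 65.1% among the 304 distal BATF-only sites and 64.2% among the 1572 distal PU.1-only sites with scores above the median. These differences were 5.04 points (−5.27 to 14.5, Fisher's exact test, adjusted p = 0.85) and 5.99 points (−3.25 to 14, Fisher's exact test, adjusted p = 0.67), an alternative added after the data were seen. At members with neither score above the median the share was 85.1% of 161. It was 84.6% of the 65 members with only the BATF score above and 83.8% of the 130 with only the PU.1 score above. A comparison of sites matched on a single score was not tested.

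The classes were named after the data were seen and are given as a description, with no test. The class of a simple repeat was read from the unit of its longest unbroken run, and the rest of the window may differ. AC-type repeats, in whose unit every second base is A on one strand and C is among the others, held 267 members (56.8%). They held 38.6% of distal BATF-only sites, 26.1% of distal PU.1-only sites and 0.868% of all distal windows. Purine repeats, whose unit holds A and G only, held 84 members (17.9%), beside 16.8% of distal BATF-only and 21.2% of distal PU.1-only sites. Of the 381 members in simple repeats, 190 (49.9%) had the plain dinucleotide AC as the unit of their longest unbroken run. The next units were AAAG at 37 members and then ACAT at 31. The classes did not stand at the same level in the Input list. At 24235 distal Input summits, 5.19% lay in AC-type repeats, 2.34% in purine repeats and 84.6% in other masked sequence. Members were left out where an Input summit lay within 500 bp, and the part that this filter plays in their make-up was tested only by leaving it out. Without it, 1263 sites met the rest of the rule, and 72% of them were simple repeats.

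**Figure D1:**
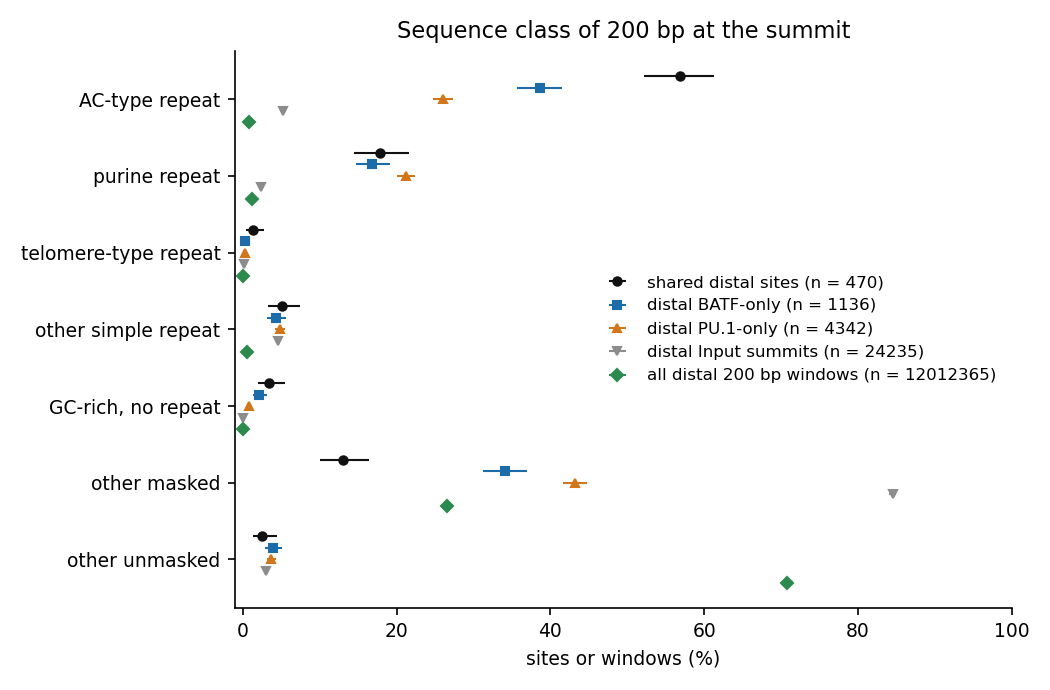
Share of sites or windows (%) in each of 7 sequence classes of the 200 bp at the summit, for shared distal sites, distal BATF-only and PU.1-only sites, distal Input summits and all distal windows, with exact 95% intervals of counting for the site sets. AC-type repeats held 56.8% of shared sites and 0.868% of all windows, and other masked sequence held 13% of shared sites and 84.6% of Input summits.

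The alternating sequence was centred on the summits. Within 10 bp on the higher side of the BATF summit, 52.7% of bases at members equalled the base 2 bp before. The same share was 45.4% near 200 bp from the summit and 30% near 1000 bp. At the summits of distal BATF-only sites it was 47.5%, and at those of distal PU.1-only sites 43.2%. All 3 sets returned to about the same level at the edges.

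**Figure D2:**
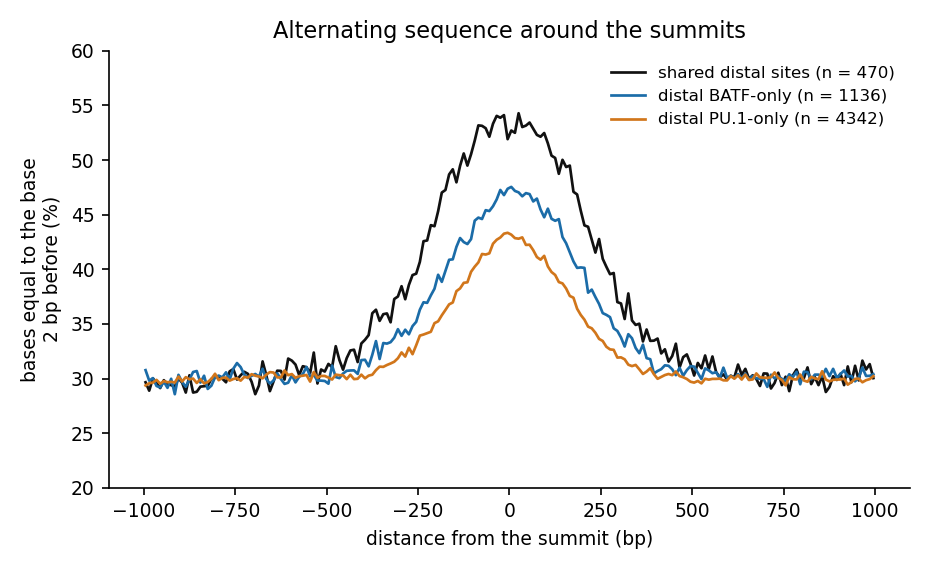
Mean share of bases (%) that equal the base 2 bp before, in steps of 10 bp from 1000 bp below to 1000 bp above the summit, for shared distal sites and for distal BATF-only and PU.1-only sites. The line of the 470 shared sites stands above the other 2 around the summit, at 52.7% just above it and at most 54.3% within 50 bp, and the 3 lines meet near 30% at the edges.

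The AC-type tracts at members were interrupted rather than perfect. Their longest unbroken run had a median of 13 bp (lowest 7, highest 56). An unbroken run of AC or TG of at least 15 bp was found at 49 of the 267 (18.4%, exact 95% interval 13.9 to 23.5). The strands were even, with AC on the plus strand at 130 sites and TG at 137. Of the 267 sites, 128 (47.9%) had 60 to 70% of bases equal to the base 1 period before, 12 had 80 to 90%, and 1 had more. The range of 60 to 70% also held 47.3% of AC-type windows at distal BATF-only sites and 46.2% at distal PU.1-only sites. Over the genome, 67.8% of AC-type windows fell between 50 and 60%. Genome windows were laid on a fixed grid and those of sites were centred on summits, so these shares are not like measures.

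Seen from the genome, most AC-type windows had no summit near them. Of 70676 AC-type windows with 50 to 60% matching bases, 0.351% lay within 500 bp of a shared site. The share was 1.08% at 60 to 70% and 1.78% at 70 to 80% (exact 95% interval 1.49 to 2.12), and then 0.899% at 80 to 90% (0.55 to 1.38). The last range, 90 to 100%, held only 273 windows, of which 4 lay near a shared site (1.47%, 0.401 to 3.71). Neighbouring windows can lie within 500 bp of the same site, so windows are not independent and these intervals are too narrow. Over the 5 ranges the shares near any BATF summit were 1.4%, 5.03%, 6.17%, 3.6% and 3.3%, and those near any PU.1 summit 2.77%, 8.37%, 8.64%, 4.94% and 5.13%. Near Input summits they were 1.75%, 5.8%, 4.67%, 2.83% and 1.83%, so tracts at 60 to 80% lay near a summit more often than those at 50 to 60% in the control as well. Goat Ig and rabbit Ig summits lay near 0.0317% and 0.0422% of all AC-type windows. Those lists held only 226 and 224 summits, so these shares cannot be set beside those of the longer lists. The part that signal shared with Input has at the members was not tested beyond the filter on Input summits.

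**Figure D3:**
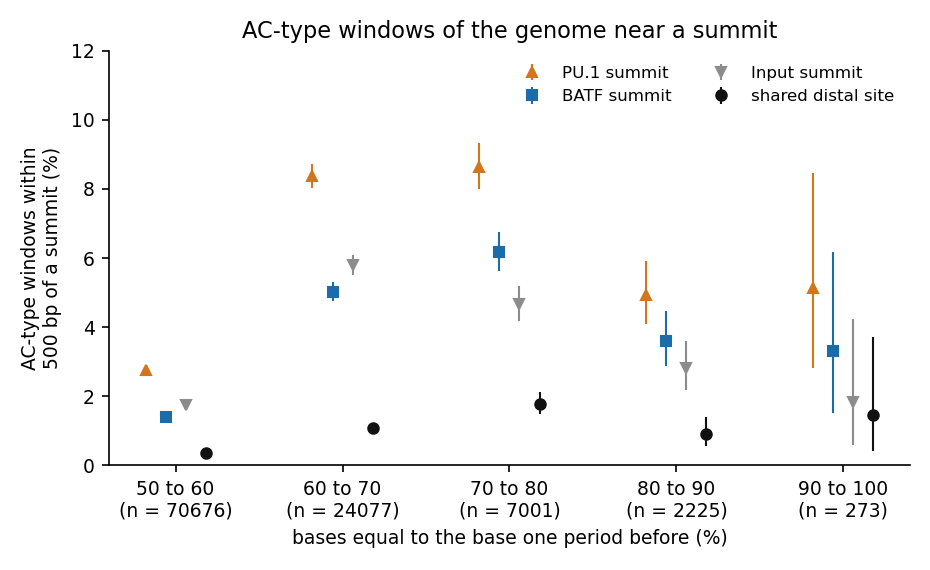
Share (%) of AC-type windows of 200 bp outside promoters that lay within 500 bp of a PU.1, BATF or Input summit or of a shared distal site, by the share of bases equal to the base 1 period before, with exact 95% intervals of counting. The share near a shared site is 0.351% in the least regular windows and 1.78% in those at 70 to 80%. Input summits also lie more often near the windows at 60 to 80% than near those at 50 to 60%. Neighbouring windows can share a summit, so the intervals are too narrow.

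The label of the sites was checked against the DNA elements that the factors read, searched on both strands of the 200 bp windows. The AP-1 element TGACTCA was found at 1 of 470 members (0.213%, exact 95% interval 0.00539 to 1.18). It was found in 2.87% of windows 5000 bp away and in 3.11% of all distal windows. The PU.1 element GAGGAAGT was found at 2 members (0.426%, 0.0516 to 1.53), beside 1.06% of windows 5000 bp away and 1.19% of all. The shorter ETS string GGAAGT was found at 2.55% of members and in 11.2% of windows 5000 bp away. Neither factor's own element was therefore more frequent at these sites than around them, and the sites are defined here by the summits and not by the elements. A missing string says only that these letters are not in the window.

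The members that hold an element are shown with it in capitals, in mm10 and on the plus strand. All 3 windows were simple repeats.
1700012B07Rik (chr11:109877700-109877819): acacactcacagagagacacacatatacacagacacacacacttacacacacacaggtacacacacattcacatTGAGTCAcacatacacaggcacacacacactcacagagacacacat
1700001O22Rik (chr2:30787852-30787971): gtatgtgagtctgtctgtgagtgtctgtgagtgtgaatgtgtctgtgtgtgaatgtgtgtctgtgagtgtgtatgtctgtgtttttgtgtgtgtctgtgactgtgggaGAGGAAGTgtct
Susd1 (chr4:59287793-59287912): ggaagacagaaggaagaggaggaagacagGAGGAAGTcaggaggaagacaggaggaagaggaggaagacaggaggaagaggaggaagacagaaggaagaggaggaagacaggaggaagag
The first stretch carries the AP-1 element and the other two carry the PU.1 element.

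None of the comparisons for these elements passed the test. The AP-1 element was less frequent at members than at distal BATF-only sites by −0.491 points (−1.19 to 0.55, Fisher's exact test, adjusted p = 0.69) and than at distal PU.1-only sites by −0.524 points (−0.873 to 0.481, adjusted p = 0.69). For the PU.1 element the differences were −0.191 points (−0.911 to 0.966) and −0.104 points (−0.51 to 1.02), both with an adjusted p of 1 by Fisher's exact test. Each of these intervals holds 0, and the 3 sets together hold few matches.

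Composite elements were also rare. The ETS-IRF composite, written GGAANNGAAA, was found at 2.34% of members, beside 2.02% of windows 5000 bp away and 2.2% of all. The interferon-stimulated element GAAANNGAAA was found at 4.04%, beside 2.66% and 3.33%. The AP-1-IRF composite and the CRE element TGACGTCA were found at 0 of 470 members, which allows a share of up to 0.782%, and in 0.0911% and 0.1% of all distal windows. The RUNX string TGTGGTTT was found at 1.06% of members and a STAT6-type element, TTCNNNNGAA, at 0.851%. The STAT6-type element was found in 7.77% of windows 5000 bp away.

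The study derived a motif of 15 bases from its IRF8 ChIP-Seq, a T at every second base with mixed bases between, and this IRF8 motif was frequent at the members. It was found at 280 of 470 (59.6%, exact 95% interval 55 to 64), beside 6.91% of windows 5000 bp away and 5.85% of all distal windows. The share was 13.1 points above that at distal BATF-only sites (7.74 to 18.3, Fisher's exact test, adjusted p = 5.4e-06) and 17.6 points above that at distal PU.1-only sites (12.9 to 22.2, Fisher's exact test, adjusted p = 1.7e-12). Under the cut on scores, which asked both scores of members, the differences were −2.63 points (−13.2 to 8) and 0.636 points (−8.72 to 9.99), both with an adjusted p of 1 by Fisher's exact test. The motif was at 50% of these 114 members, beside 66.2% of the 65 with only the BATF score above. It was at 62.3% of the 130 with only the PU.1 score above and 61.5% of the 161 with neither above. Without the filter on control summits the difference from BATF-only sites was 2.87 points (−0.854 to 6.58, Fisher's exact test, adjusted p = 0.23). That from PU.1-only sites was then 9.26 points (6.27 to 12.3, Fisher's exact test, adjusted p = 3.8e-09).

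The motif went with the repeats. It was found at 205 of 267 members in AC-type repeats (76.8%) and at 59 of 84 in purine repeats (70.2%). It was found at 5 of 61 members in other masked sequence (8.2%) and at none of the 16 GC-rich members. Over the genome, 90.1% of AC-type windows and 48.3% of purine windows held it with or without a summit near, as the alternating strand of such a tract can itself spell the motif. What part binding of IRF8 has at these sites was not tested, as no IRF8 list was analysed here.

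Members were mostly masked sequence far from promoters, as were the sites of each factor alone. More than 50% of bases were masked at 93% of members (90.3 to 95.1), at 93% of distal BATF-only sites and at 94.8% of distal PU.1-only sites. The masked share was 28.9% over all distal windows, 22.7% in windows 5000 bp away and 96.6% at distal Input summits. Members differed from the BATF-only and PU.1-only sites by −0.0671 points (−3.06 to 2.5, Fisher's exact test, adjusted p = 1) and −1.86 points (−4.61 to 0.236, adjusted p = 0.25). The second difference passed the test under the cut on scores, which asked both scores of members, at −9.33 points (−16.9 to −3.99, Fisher's exact test, adjusted p = 0.0025). It also passed with no control filter, at −2.81 points (−4.44 to −1.42, Fisher's exact test, adjusted p = 0.00014). Introns held 196 members (41.7%), exons 15 (3.19%), and 259 (55.1%) were intergenic. The share inside a gene was 44.9% and differed from the 2 other sets by −2.2 points (−7.51 to 3.16, Fisher's exact test, adjusted p = 0.69) and 0.352 points (−4.33 to 5.11, adjusted p = 1). The nearest transcript start was a median of 15567 bp away, and 293 members (62.3%) had none within 10000 bp. Members per megabase ranged from 0.0877 on chromosome X to 0.25 on chromosome 15.

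The rule left some members close to its limits. The PU.1 summit farthest from its BATF summit was 493 bp away, and the nearest one left out was 570 bp away. The member closest to a transcript start was 1029 bp from it, and the nearest site left out was at 980 bp. The closest control summit to a member was 508 bp away, at Ptprn2 and Rapgef2, and the nearest site left out had one at 497 bp.

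The distance between the summits is limited by the rule and is described only. Its median was 61.5 bp (quartiles 29 and 121 bp), and 196 members (41.7%) had both summits within 50 bp. The PU.1 summit had the lower position at 233 members and the higher position at 237, and none shared a base. The median was 64 bp in AC-type repeats, 54.5 bp in purine repeats, 33.5 bp at GC-rich members and 12 bp in the 6 telomere-type repeats. The 470 members had 467 distinct nearest PU.1 summits, so nearly every member had a PU.1 summit of its own.

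**Figure D4:**
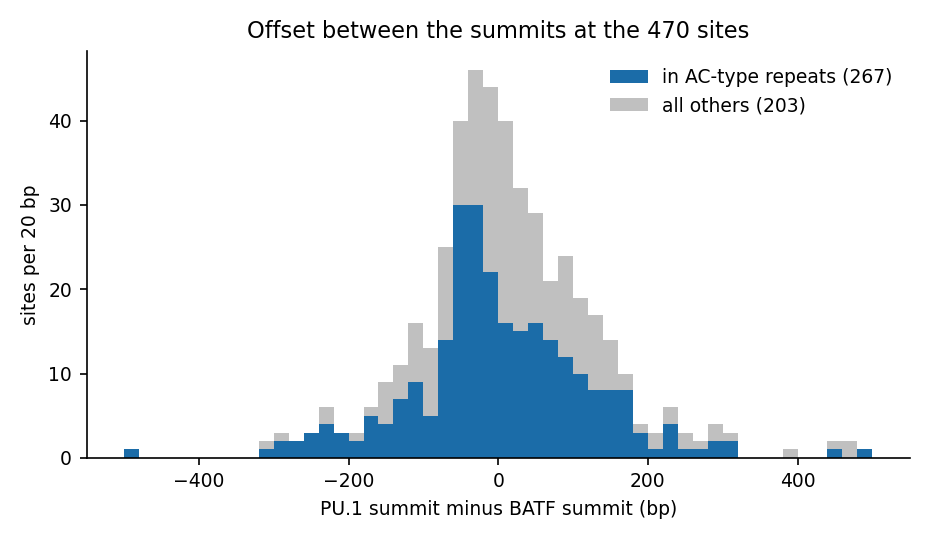
Number of the 470 shared distal sites per 20 bp of the position of the PU.1 summit minus that of the BATF summit (bp), with the 267 sites in AC-type repeats in blue and all others stacked in grey. Offsets lie on both sides of 0 (233 lower, 237 higher), and 423 sites are within 200 bp.

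Peak scores at the members were modest and are given as deposited. The BATF score ran from 1.5 to 17.4 with a median of 4.21, above the median of 3.92 at distal BATF-only sites and below the median of 4.74 of the whole BATF list, whose highest score was 429. The PU.1 score ran from 1.44 to 15.7 with a median of 4.26, beside 4.13 for the whole PU.1 list and 3.34 at distal PU.1-only sites. Across the members the 2 scores had a Spearman rho of 0.246 and a Pearson r of 0.29 on the log2 scale (n = 470). This is a description across sites that share both libraries. Scores above the median of both lists were held by 114 members.

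The members with the highest BATF scores were not in AC-type or purine repeats, although of the 114 members above both medians 43.9% were AC-type and 17.5% purine repeats. Among the 10 with the highest BATF score, 4 were GC-rich, 2 were telomere-type repeats, 3 were other masked sequence and 1 was unmasked. A BATF score of 16.5 was found 202087 bp from Zpld1, with a PU.1 score of 8.58. Rab39b, a gene of a Rab GTPase, with a BATF score of 12.2, and Htr1b, a serotonin receptor gene, with 12, were the nearest genes of the other masked sites. None of these 3 sites lay inside a gene.

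Among the 10 members with the highest PU.1 score, 2 were AC-type repeats, 1 was a purine repeat, 2 were telomere-type, 1 was GC-rich, 3 were other masked sequence and 1 was unmasked. The highest PU.1 score, 15.7, was in an intron of Ptprn2, a receptor-type phosphatase gene, where the BATF summit lay 454 bp away with a score of 8.51. The Kif21a site shown above had scores of 13.3 for PU.1 and 11.6 for BATF, 8 bp apart. The purine site nearest to Rapgef2, an exchange factor for Rap GTPases, had 12.5 for PU.1 and 8.28 for BATF. Fbln1, the gene of the matrix protein fibulin, was the nearest gene to an AC-type site with a PU.1 score of 11.5 and a BATF score of 5.06. The sites nearest to Tpm3-rs7, Ythdf3 and Pitrm1 had PU.1 scores of 11.7, 10.6 and 10.6 and BATF scores of 5.22, 3.56 and 8.28. Among these 10 members the BATF score was 3.56 or more.

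**Figure D5:**
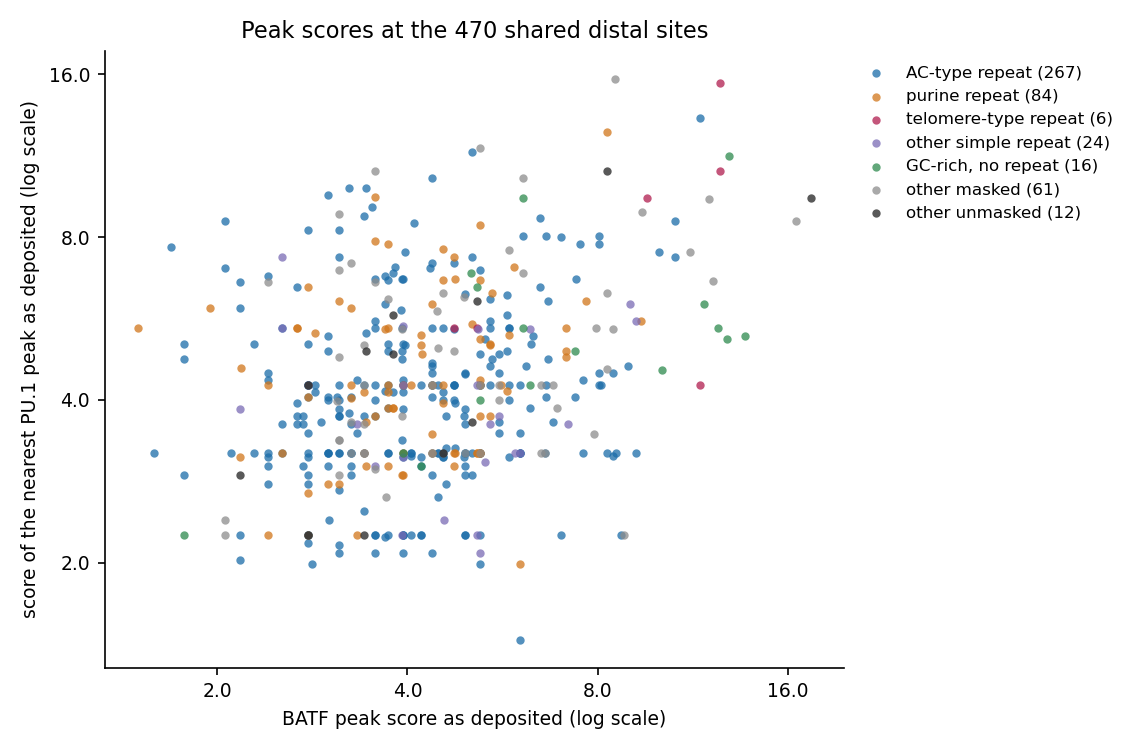
BATF score (x axis) and score of the nearest PU.1 peak (y axis) at the 470 shared distal sites, both as deposited and on log scales, coloured by sequence class. Sites in AC-type repeats had a median BATF score of 3.94 and PU.1 score of 4.05, beside 4.21 and 4.26 at all 470 sites. The highest BATF scores, from 12 to 17.4, belong to telomere-type, GC-rich, other masked and unmasked sites.

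Telomere-type repeats, tracts of TTAGGG inside chromosome arms, were few but strong. The 6 members had BATF scores of 4.74 to 12.5 (median 10.6) and PU.1 scores of 4.26 to 15.4 (median 7.45). The Pde7b intron, in a gene of a cyclic AMP phosphodiesterase, scored 12.5 for BATF and 15.4 for PU.1. The site 609858 bp from Map3k7, the gene of the kinase TAK1, scored 12.5 and 10.6. The site in the untranslated part of an Arsb exon scored 11.6 and 4.26, and that 23159 bp from Bicd1 scored 9.57 and 9.47. The Capn8 intron and the site near Ccng2 had the lowest BATF scores, 5.16 and 4.74, each with a PU.1 score of 5.43. Such windows are rare, with 237 over all distal sequence, and they lay near summits in every library. Of the 237, 40.5% were within 500 bp of a PU.1 summit, 34.6% of a BATF summit, 30% of an Input summit, 13.9% of a goat Ig summit and 14.8% of a rabbit Ig summit. The members are those with no control summit within 500 bp, and the closest one to them was 23402 bp away, at Ccng2.

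GC-rich members, with at least 65% GC, less than 25% masked bases and no simple repeat, numbered 16 (3.4%), beside 92.8% of the 556 promoter sites that both factors shared. Of the 16, 13 lay in exons, and each of these 13 in coding sequence. Prdm12, a gene of a zinc finger regulator, scored 13.7 for BATF and 5.24 for PU.1, and Rasip1, which encodes a Ras-interacting protein, scored 12.9 and 11.3. Exoc3l2 scored 11.8 and 6.01. Of the other 3, the sites nearest to Arhgap32, with scores of 12.8 and 5.19, and Ebf3, a transcription factor gene, with 12.4 and 5.43, were intergenic and that of Gm21887 was intronic. The exonic site in C1qtnf4, with 7.37 and 4.93, was also the member nearest to Spi1, the gene of PU.1 itself, at 192538 bp.

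Outside simple repeats stood 89 members, and many of them carried related sequence. Of these 89, 48 shared at least 10 words of 14 bases with another member within 400 bp windows, and such links joined them into a group of 44 and a group of 4. The group of 44 consisted of other masked sites, which numbered 61 in all. It held the sites nearest to Zpld1, with a BATF score of 16.5, to Tlr4, with 11.2, to Spidr, with 9.42, and that in Ptprn2. The group of 4 held the site nearest to Htr1b, which had a control summit 745 bp away. Linked members share sequence and are not independent of each other, and the grouping was made after the data were seen.

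T cell genes were examined through 3 lists, chosen with earlier results of these data known. The count is of genes with a member inside or within 50000 bp. Among 38 T helper cytokine and receptor genes, 4 had one (10.5%), among 65 lineage, AP-1, IRF, ETS and STAT factor genes 2 (3.08%), and among 41 genes of T cell receptor signalling 1 (2.44%). Over all 21728 protein-coding genes, 606 had one (2.79%). Il4ra and Il21r, the genes of receptor chains for IL-4 and IL-21, share 1 member, so the 4 cytokine and receptor genes rest on 3 sites.

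The site 955 bp outside Il4ra scored 5.8 for BATF and 3.99 for PU.1, 71 bp apart, and was 23000 bp from Il21r. The site 34600 bp from Ifng, the gene of interferon gamma, scored 4.37 and 2.9. The intronic site in Ifngr2, which encodes a chain of the interferon gamma receptor, scored 4.05 and 3.15. All 3 were AC-type repeats. The intronic site in Nfatc2, the gene of an NFAT factor that acts downstream of the T cell receptor, scored 5.59 and 4.48 and was an AC-type repeat too. The site 19753 bp from Elk3, an ETS family gene, scored 5.18 and 5.4 and lay in a related repeat. Cd247, which encodes the zeta chain of the T cell receptor complex, had a member 1261 bp away. Id2, the gene of an inhibitor of helix-loop-helix factors, was the nearest gene to another member, but at 537315 bp. The BATF scores of the named sites at list genes, 3.56 to 5.8, lay below the highest scores among the members.

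Distances from the members to genes tied to the 2 factors in Th9 cells are given for reference. The rule leaves out every summit within 1000 bp of a transcript start, so they say nothing about summits within that distance of these genes' starts. The study places its IRF8 peak upstream of Il21 slightly beyond this limit. It also reports PU.1, BATF and IRF4 with IRF8 at a conserved stretch of each of the Il9 and Il21 promoters. Why no member lies at the Il21 peak was not tested. The nearest member was 2010379 bp from Il9, 1476379 bp from Il21 and 1584367 bp from Il4. It was 176252 bp from Irf8, 802462 bp from Batf and 7294845 bp from Irf4. Distances of this size give no link between a site and a gene, and the lists hold no measure of expression.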

How the data were processed

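The authors deposited, per the labels, 1 list of peak summits for each ChIP-Seq library, as 1 bp positions with a name from MACS2 and a score whose scale is not stated. The labels name Bowtie2 and mm10, and the methods of the study name Bowtie, MACS, FindPeaks and the Nebula server. The calling thresholds, the control used and the read depth are not given in the sources used here. All positions are 1-based mm10 and sequence came from GRCm38.p6, with genes from GENCODE M21. The score was used only to rank or split sites. Each site's gene is the one that holds it or the nearest protein-coding gene. Sites named in the text are the 10 highest by BATF and by PU.1 score and those at genes of 3 lists. A few others were named after their values were seen, and 1 site that the rule names is not reported here. Shares have exact (Clopper-Pearson) 95% intervals, and differences have Newcombe intervals with 2-sided Fisher's exact tests (scipy 1.17.1), adjusted over 12 comparisons by Benjamini-Hochberg. Sites are the units, so p covers no spread between experiments, and sites that share repeat sequence are not independent. The scripts were tested on simulated data. The members, lists and tests were chosen with earlier results of these data known. The alternatives varied windows, distances, scores and filters.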

Additional observations from a re-analysis of the deposited data

How the results depend on the processing

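No paired analysis was possible because each antibody has 1 library and no replicate number, and for the same reason no replicate could be left out. The number of shared distal sites was 1263 with no control filter and 114 with summits above the median score of both lists, and stayed within 1.5 times of 470 under the other 7 alternatives. With summits above the median score, the shares of members were 0% for the AP-1 motif, 50% for the IRF8 motif, 70.2% for simple repeats, 86% masked and 51.8% inside a gene, and the median distance between summits was 45.5 bp. In that setting the IRF8 motif differed by −5.01 points from BATF-only and −0.44 points from PU.1-only sites, and simple repeats by 1.61 and 4.37 points, with adjusted p of 0.88 to 1, while the masked share was −9.46 points from PU.1-only sites (Fisher's exact test, adjusted p = 0.0018). An alternative added after seeing the data kept the same 114 members but compared them with main sites above the median score that had no partner summit of any score. It gave the same shares of members, IRF8 motif differences of −2.63 and 0.636 points, simple repeat differences of 5.04 and 5.99 points, and a masked share −9.33 points from PU.1-only sites. The cause was not tested, and fewer sites entered each comparison. In both settings members had to pass the medians of both lists, and each other set only that of its own list. Also added later, no control filter gave 45.7% of members with the IRF8 motif, 2.87 points above BATF-only and 9.26 points above PU.1-only sites. It gave 72% in simple repeats and a masked share −2.81 points from PU.1-only sites. The masked share was thus called lower than at PU.1-only sites in 3 settings but not in the main comparison. The IRF8 motif was at 49.8% of members in 100 bp windows and 67% in 400 bp windows. In 400 bp windows the AP-1 motif was at 1.7% and simple repeats at 76.4%, and windows centred on the PU.1 summit gave 0% for the AP-1 motif. Simple repeats were 86.8% at more than 40% matching bases and 63% at more than 60%. At 5000 bp from transcript starts 38.5% of members were inside a gene. Of 96 alternative values of the differences, 84 kept their side of the threshold, and where the sign of an uncalled difference changed it stayed within the interval of the main value. Depth is unknown, so a missing summit cannot be told from low coverage.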
